A study of Rattus norvegicus with 2 samples.

Results

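Myelin and oligodendrocyte genes were followed from undifferentiated C6 glioma, a glial tumor line of the rat, to small molecule-induced neurons (SMiNs) made from it. The 9 members were Mbp, Mog, Mag, Cnp, Mal, Aspa, Bcas1, Tspan2 and Pmp22, out of 18166 named genes on the arrays. A member is measured by probe sets that the platform annotation pairs with that gene symbol alone. Mbp has 2 such probe sets and the other members have 1 each, and for Mbp the probe set with the higher mean was used. Signals of Cnp, Bcas1 and Pmp22 were 2.33-fold to 3.28-fold lower in SMiNs than in C6 glioma. Aspa was 2.08-fold higher. Against the level taken for unexpressed genes, Tspan2 was at least 1.75-fold lower, and Mog, Mag and Mal lay within about that level on both arrays.

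Oligodendrocytes wrap axons of the central nervous system with myelin, and Schwann cells do so in peripheral nerve. Compact myelin is held together by membrane proteins and by MBP on its cytoplasmic faces, while CNP lies in the uncompacted cytoplasmic channels and MAG and MOG lie on the innermost and outermost membranes. Oligodendrocyte precursors carry PDGFRA and NG2, then pass through a newly formed stage that BCAS1 marks in mouse and human brain, and finally express the full set of myelin genes under transcription factors such as SOX10 and MYRF. PMP22 is a major protein of peripheral myelin and is also expressed in many cells that make no myelin.

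The C6 glioma array held RNA from the undifferentiated line, grown in medium with 10% serum. The SMiN array held RNA from C6 cells kept for 35 days with 20 μM CHIR99021, an inhibitor of GSK3, and 100 μM forskolin, an activator of adenylyl cyclase, in neural induction medium on Matrigel. The labels give the small molecule treatment and the serum medium for both samples, whereas the study's methods describe untreated C6 glioma and an induction medium without serum, and the methods were followed. Medium, coating, small molecules and time in culture therefore differ together and cannot be told apart, and C6 is a single tumor line.

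Each condition had 1 array, so there is no spread between replicates, no test is possible, and each fold holds for these arrays alone. Array values are log2 signals with a median of 4.79 in C6 glioma and of 4.85 in SMiNs. Receptors of smell, 1360 probe sets for olfactory and vomeronasal genes, were taken as unexpressed, and their 95th percentile served as the floor of an array. This floor lay at 4.79 for C6 glioma and 4.89 for SMiNs, and a fold is given as "at least" when the lower signal lay below it. Signal depends on the probe set, so a gene is compared only with itself across the arrays. In these bulk samples fewer cells of a type and less RNA per cell cannot be told apart. The glial marker S100b had signals of 9.28 for C6 glioma and 10.06 for SMiNs, and the astrocyte filament gene Gfap had 5.97 and 5.40, all above the floor.

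Cnp (probe set 17651087) encodes a cyclic nucleotide phosphodiesterase that is abundant in oligodendrocytes and is used as an early marker of the lineage. Its log2 signal was 8.52 for C6 glioma and 6.80 for SMiNs, 3.28-fold lower, and both values lay well above the floor. Only 407 named genes (2.24%) were lower in SMiNs by as much or more. Cnp had the greatest difference of the 9 members.

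Bcas1 (probe set 17779697) gave a log2 signal of 7.75 for C6 glioma and 6.26 for SMiNs, which is 2.81-fold lower. A difference of that size or a more negative one was found for 608 named genes (3.35%). In SMiNs the Bcas1 signal still exceeded the floor by 1.37 on the log2 scale, so the gene remained above the level of unexpressed genes.

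Pmp22 (probe set 17646767), whose product spans the membrane of compact peripheral myelin and whose gene dosage underlies an inherited neuropathy, reached a log2 signal of 10.55 for C6 glioma. The SMiN array gave 9.33, a 2.33-fold lower signal. Both values were far above the floor, by 5.76 for C6 glioma and 4.43 for SMiNs. Of the named genes, 1003 (5.52%) were lower by at least this much.

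Tspan2 (probe set 17741413), a tetraspanin of oligodendrocytes, was above the floor in C6 glioma, at 5.70, and below it in SMiNs, at 4.29. The deposited values differ by 2.66-fold, but against the floor only a bound of at least 1.75-fold lower can be given.

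Aspa (probe set 17658462) was the only member with a signal at least 2-fold higher in SMiNs. It encodes aspartoacylase, the oligodendrocyte enzyme that splits N-acetylaspartate and is lost in Canavan disease. The log2 signal was 4.88 for C6 glioma, 0.09 above the floor, and 5.94 for SMiNs, 1.05 above it. The fold of 2.08 passed the 2-fold mark narrowly, and centring each array on its median took it below that mark. In all, 690 named genes (3.80%) were higher by at least this much.

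Mbp (probe set 17724563), the gene of myelin basic protein, had exactly the same log2 signal, 5.49, on both arrays. This is 0.70 above the floor in C6 glioma and 0.60 above it in SMiNs. The other Mbp probe set (17724572) had 3.89 and 3.94, both below the floor. Identical values were common on these arrays. Of 6069 probe sets with a mean signal between 5 and 6, 1054 (17.4%) had identical values, and of all 36685 probe sets 7312 (19.9%) did. The identity of the Mbp values is therefore not read as a measurement that its transcript was unchanged.

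The remaining members gave signals near the floor. Mog (probe set 17752333), an immunoglobulin-like protein of the myelin surface, had 4.84 for C6 glioma, 0.05 above the floor, and 4.42 for SMiNs, below it. Mag (probe set 17631751), a sialic acid-binding lectin that faces the axon, had 4.64 for C6 glioma, below the floor, and 4.96 for SMiNs, 0.07 above it, which sets a bound of at least 1.13-fold higher. Mal (probe set 17777037), a proteolipid of myelin and of epithelial apical transport, had 4.85 and 4.88. For Mog and Mal no fold can be given against the floor. For Mag the bound is small, 0.17 on the log2 scale, and no larger than the mean difference of the receptor probe sets. Values this close to the floor do not show that the genes are absent or unchanged.

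**Figure D1:**
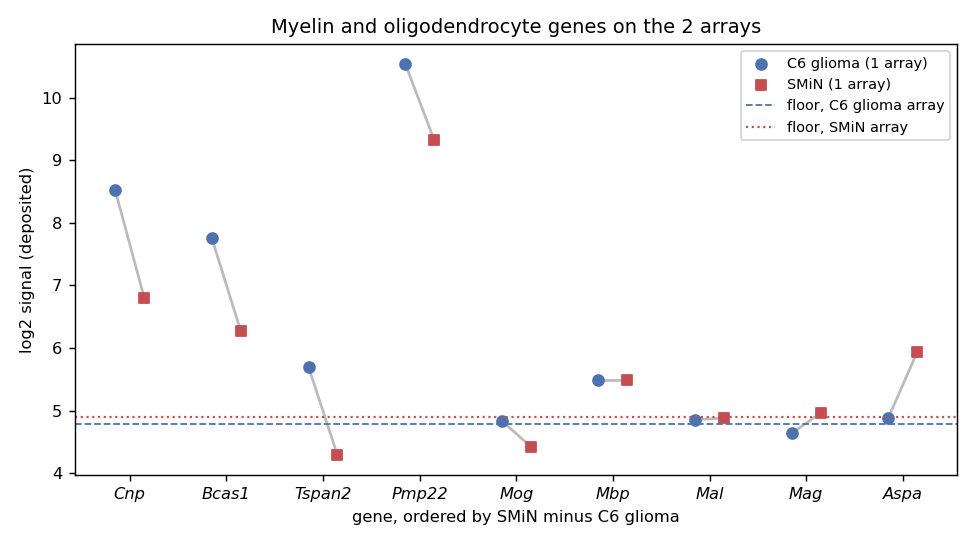
Log2 signal of each of the 9 members for C6 glioma (circles) and SMiNs (squares), with genes ordered by the difference and the floor of each array as a horizontal line. Cnp, Bcas1 and Pmp22 were lower in SMiNs and stayed above the floor, Tspan2 passed from 5.70 to 4.29, below the floor, and Aspa went from 4.88 to 5.94.

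Counted over the members, 4 of 9 had a signal at least 2-fold lower in SMiNs (Cnp, Bcas1, Tspan2 and Pmp22), beside 8.12% of all named genes. The count at least 2-fold higher was 1 of 9, beside 4.27% of all named genes. Against the floor the counts were 3 lower, beside 7.63% of all named genes, and 1 higher, beside 3.09%. The median difference of the members, SMiN minus C6 glioma, was -0.41 on the log2 scale in the deposited values, and that of all named genes was 0. This median is the value of Mog, which lay below the floor in SMiNs, and it became 0 when values under the floor were set to it. Well-expressed genes were more often lower. Among the 4095 named genes with a mean signal between those of Bcas1 and Pmp22, a range chosen after the values were seen, 17.6% were at least 2-fold lower and 7.47% at least 2-fold higher. Among the 11306 that reached the floor of an array, the shares were 12.9% and 5.75%. The members were chosen with earlier results of these arrays known, and these counts are a description and carry no test.

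**Figure D2:**
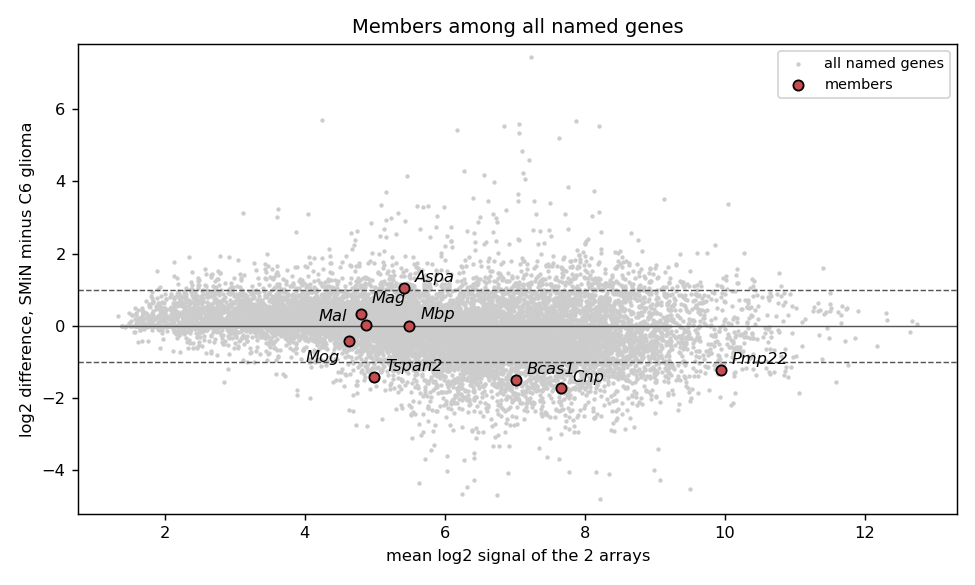
Log2 difference, SMiN minus C6 glioma, against the mean log2 signal of the 2 arrays for 18166 named genes (gray) and the 9 members (red), with dashed lines at 2-fold in either direction. The lowest difference of a named gene, -5.28, lies outside the plotted range. Cnp, Bcas1, Pmp22 and Tspan2 lie below the lower line, and Aspa lies just above the upper line.

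The sequences before the transcription start of the members that differed are given as a description of their base composition. RefSeq (build GRCr8) gave promoters for 7 of the 9 members, all but Bcas1 and Mog. The 250 bases before the listed start of Cnp, Pmp22 and Tspan2, lower in SMiNs, and of Aspa, higher in SMiNs, read as follows on the strand of the gene, with matches to the searched motifs in capitals:
Cnp, chr10:86011254-86011503, plus strand: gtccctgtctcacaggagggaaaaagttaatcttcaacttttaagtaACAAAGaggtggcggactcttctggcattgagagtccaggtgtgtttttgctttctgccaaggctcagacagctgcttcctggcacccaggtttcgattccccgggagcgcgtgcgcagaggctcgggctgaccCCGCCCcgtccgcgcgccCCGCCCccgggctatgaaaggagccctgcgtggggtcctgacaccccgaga
Pmp22, chr10:48294682-48294931, plus strand: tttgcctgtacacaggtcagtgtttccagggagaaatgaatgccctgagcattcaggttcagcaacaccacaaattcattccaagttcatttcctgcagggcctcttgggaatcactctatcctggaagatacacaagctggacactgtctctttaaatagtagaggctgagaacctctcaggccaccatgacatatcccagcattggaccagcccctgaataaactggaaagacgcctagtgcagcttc
Tspan2, chr2:192866030-192866279, plus strand: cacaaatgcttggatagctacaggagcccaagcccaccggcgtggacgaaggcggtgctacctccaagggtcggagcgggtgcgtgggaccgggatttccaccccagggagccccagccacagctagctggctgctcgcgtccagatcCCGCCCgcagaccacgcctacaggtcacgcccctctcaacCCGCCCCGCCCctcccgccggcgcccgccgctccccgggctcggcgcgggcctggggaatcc
Aspa, chr10:58439038-58439287, minus strand: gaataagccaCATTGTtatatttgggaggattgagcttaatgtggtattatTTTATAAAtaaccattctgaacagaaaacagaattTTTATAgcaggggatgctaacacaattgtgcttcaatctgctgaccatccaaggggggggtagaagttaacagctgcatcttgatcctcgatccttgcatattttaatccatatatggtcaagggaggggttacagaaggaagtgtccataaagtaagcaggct

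The motifs, searched on both strands, were ACAAAG and ACAATG for SOX factors, TGACG for the core of a cAMP response element, ATCAAAG for TCF/LEF factors, GGGCGG for the GC box and TATAAA for the TATA box. The Cnp sequence held 1 ACAAAG, which starts 203 bases before the start, and 2 GC boxes. Tspan2 held 3 GC boxes, of which a pair overlap by 1 base. Aspa held 1 ACAATG and 3 TATAAA matches, of which a pair overlap, and Pmp22 held 0 matches to the 6 motifs. In the same window ACAAAG was found in 16.3% of 33469 RefSeq promoters, ACAATG in 11.1%, TGACG in 18.2%, ATCAAAG in 3.15%, GGGCGG in 30.5% and TATAAA in 12.9%. The content of G and C was 72% for Tspan2, 60.4% for Cnp, 48% for Pmp22 and 39.2% for Aspa, against a median of 51.2%. Among members that did not differ by 2-fold, it was 70% for Mag, 64.8% for Mal and 62% and 58.8% for the Mbp windows. With so few windows, no relation of base composition to direction is read. A match describes letters only. The absence of TGACG and ATCAAAG from the 4 printed windows says nothing about binding of CREB or TCF/LEF factors to these genes. Each window lies before a listed start, and which start these cells used was not measured.

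Next, other structural proteins of myelin were examined. The count of each related list is read beside 8.12% of all named genes at least 2-fold lower and 4.27% at least 2-fold higher, and they use the deposited values unless the floor is named. Of 17 measured genes, 1 was at least 2-fold lower, Cmtm5, and 1 was at least 2-fold higher, Pmp2, with a median difference of 0. Cmtm5, a MARVEL domain protein of central myelin, had log2 signals of 10.13 for C6 glioma and 8.01 for SMiNs, 4.34-fold lower. Pmp2, a fatty acid-binding protein of peripheral myelin, had 5.43 and 6.58, a 2.21-fold higher signal. The floor was reached on at least 1 array by 9 of the 17 genes. Mobp, a small protein of compact central myelin, was below it on both arrays, at 4.35 and 4.74, as were Opalin and Ermn. Cldn11, the claudin of oligodendrocyte tight junctions, had 5.63 and 5.62.

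Genes of myelin lipids did not differ by 2-fold. None of the 18 measured genes of myelin lipid synthesis and turnover was at least 2-fold higher or lower, and their median difference was 0.01. Fa2h, which hydroxylates the fatty acids of myelin galactolipids, was 1.95-fold lower in SMiNs, with signals of 6.25 and 5.29. Ugt8, the enzyme that makes galactosylceramide, had 4.15 for C6 glioma, below its floor, and 5.05 for SMiNs, so it was at least 1.19-fold higher. Far1, which makes fatty alcohols for plasmalogens, was 1.89-fold higher.

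Around Aspa, 13 genes of N-acetylaspartate metabolism were measured. Slc25a13, a mitochondrial carrier of aspartate and glutamate, was 2.58-fold lower in SMiNs, 0 genes were 2-fold higher, and the list median was -0.09. Nat8l, the synthase of N-acetylaspartate, gave a log2 signal of 4.79 for C6 glioma, at the floor, and 5.35 for SMiNs, 1.48-fold higher. Acss2, which turns acetate into acetyl-CoA, was 1.89-fold lower. Nat8l thus did not reach the 2-fold mark that Aspa passed narrowly.

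Pmp22 belongs to a family of tetraspan proteins with the epithelial membrane proteins. Emp1, Emp2 and Emp3 all had signals at least 2-fold lower in SMiNs, as Pmp22 was. Emp1 had signals of 9.74 for C6 glioma and 7.60 for SMiNs, 4.40-fold lower. Emp3 had 10.66 and 8.88, 3.43-fold lower, and Emp2 had 6.21 and 5.16, 2.07-fold lower. The other 3 genes of this list, Lim2, Perp and Tmem47, lay below the floor on both arrays, and the list median was -0.52. Pmp22 was first found in fibroblasts as a growth arrest-specific gene, Gas-3, and 6 other genes with that name were measured. Gas2l3, a cytoskeletal protein of dividing cells, was 3.76-fold lower and Gas7 was 2.48-fold lower. The median was -0.12, with 0 genes 2-fold higher, and Gas6, a ligand of TAM receptors, had 4.74 and 5.15.

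The families of Mal and Tspan2 held members that differed in both directions. Of 20 MAL and MARVEL genes, 2 were at least 2-fold lower, Cmtm5 and Myadm (3.86-fold), and 1 was at least 2-fold higher, Sypl1 (2.14-fold). Their median difference was 0. Of 28 tetraspanin genes, 1 was at least 2-fold lower and 3 were at least 2-fold higher, 2 of them against the floor, with a median of 0. Tspan7 had log2 signals of 11.08 for C6 glioma and 9.22 for SMiNs, 3.63-fold lower. Tspan12, a co-receptor component of Norrin signaling, had 3.69 for C6 glioma, below its floor, and 6.63 for SMiNs, so it was at least 3.58-fold higher. Tspan5 was 2.08-fold higher, and Tspan18, below the floor in C6 glioma, at least 1.85-fold higher. After median centring Tspan5 (0.99) and Tspan18 (0.95) missed 2-fold, and Tspan18 (0.99) also did under quantile normalization. Cd9 and Cd81, tetraspanins found in myelin and in many other membranes, were 1.39-fold and 1.43-fold higher.

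**Figure D3:**
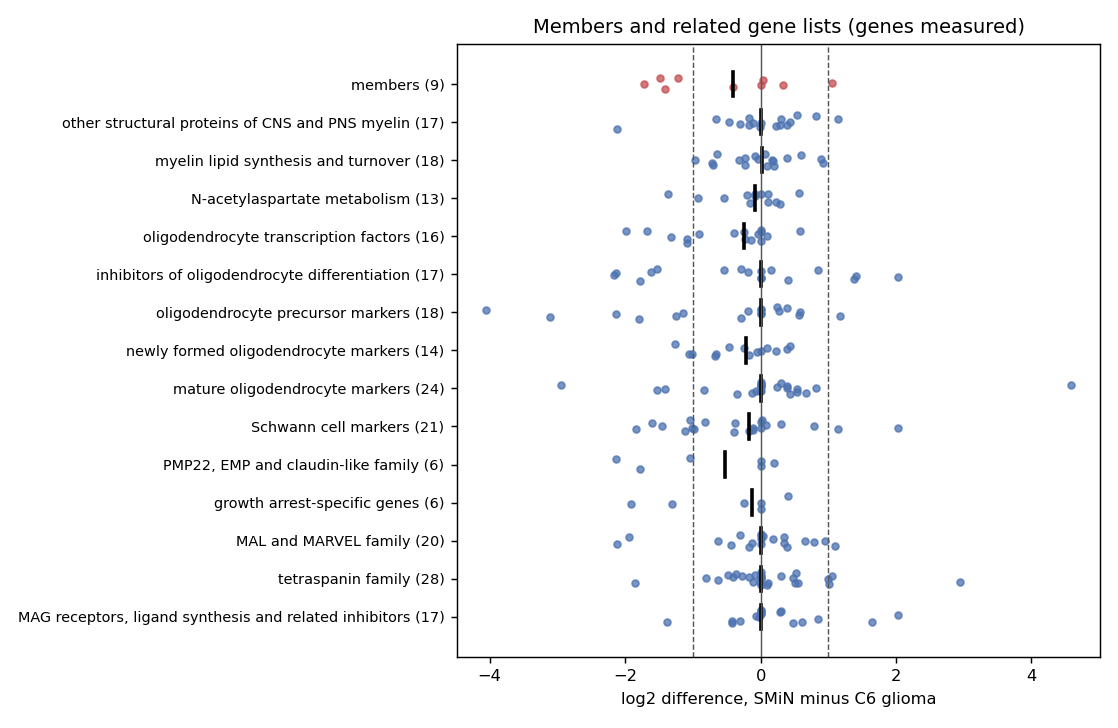
Log2 difference, SMiN minus C6 glioma, of each gene (points, shifted at random in height) in the members and in 14 related lists, with the number of genes measured in brackets, list medians as black bars and dashed lines at 2-fold. The median is -0.41 for the members, -0.52 for the PMP22 family and 0 for the MAL and tetraspanin families.

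Regulators of oligodendrocyte differentiation were then compared. Of 16 transcription factors and cofactors of the lineage, SMiNs had 2-fold lower signals for 5 and 2-fold higher signals for 0, and the median was -0.24. Myrf, which switches on central myelin genes, had signals of 6.57 for C6 glioma and 5.48 for SMiNs, 2.12-fold lower. Zfp536, a zinc finger factor, was 3.96-fold lower, Olig1 at least 3.17-fold, the arginine methyltransferase Carm1 2.51-fold and Zeb2 2.12-fold. Under quantile normalization Myrf (-0.99) and Zeb2 (-0.90) no longer differed by 2-fold. Nkx2-2, a homeodomain factor of the lineage, was 1.88-fold lower, at 6.03 and 5.12. Sox10, which is needed throughout the lineage and in Schwann cells, had 8.87 and 8.48, 1.32-fold lower and well above the floor on both arrays. Olig2 had the same value, 5.29, on both.

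Genes listed as inhibitors of oligodendrocyte differentiation differed in both directions. Of 17 measured genes, 5 were at least 2-fold lower. They were Egr1 (4.49-fold), Sox6 (4.38-fold), Hes1 (3.07-fold), the Notch ligand Jag1 (2.88-fold) and Sox5 (at least 2.20-fold). Another 3 were at least 2-fold higher, Axin2 (4.08-fold), Id3 (2.65-fold) and Id2 (at least 2.42-fold). Of these, Axin2 is a target of Wnt signaling and is not itself an inhibitor of this differentiation. The list median was 0.

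Markers of the stages of the lineage were set beside the members. Of 18 precursor markers, 6 were at least 2-fold lower and 1 was higher, and against the floor 5 were lower, without Tnr (at least 1.76-fold). The lower precursor markers included the PDGF receptor Pdgfra (16.6-fold), the NG2 gene Cspg4 (at least 8.59-fold), Sox6 (4.38-fold), Ptprz1 (3.46-fold) and Serpine2 (2.22-fold). The higher one was Vcan (2.26-fold), at 9.58 for C6 glioma and 10.76 for SMiNs. Of 14 markers of newly formed oligodendrocytes, the stage that Bcas1 marks, SMiNs had 2-fold lower signals for 3 and higher signals for 0. The lower genes were Cyfip2 (2.41-fold), Mpzl1 (2.07-fold) and the kinase Fyn (2.03-fold), of which Mpzl1 (-0.90) and Fyn (-0.84) missed 2-fold under quantile normalization. Enpp6 was below the floor on both arrays. Of 24 markers of mature oligodendrocytes, 3 were lower, Il33 (at least 4.84-fold), Ninj2 (at least 2.75-fold) and Plekhb1 (2.66-fold). The only higher gene in that list was Enpp2, which encodes the secreted enzyme autotaxin. Its signal was 4.90 for C6 glioma, only 0.11 above the floor, and 9.49 for SMiNs, 24.0-fold higher. Medians were 0 for the precursor and mature lists and -0.21 for the newly formed list.

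Since Pmp22 and Mal are also expressed by Schwann cells, 21 Schwann cell markers were examined. At least 2-fold lower were 6 of them, including the neuregulin receptor Erbb3 (3.58-fold), Egr2, the transcription factor that drives peripheral myelination (3.04-fold), Jun (2.73-fold) and Cdh19 (2.17-fold). Under quantile normalization Sox2 (-0.83) and Tfap2a (-0.79), also among the 6, missed 2-fold. The 2 higher genes were Pmp2 and Ngfr, and the median was -0.17. Periaxin (Prx), a protein of peripheral myelin, lay near the floor at 5.19 and 5.07, and Pou3f1 was below it on both arrays.

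MAG acts on neurons through a receptor complex, and 17 genes of that complex, of ligand synthesis and of related inhibitors were measured. Rtn4rl2, a receptor that binds MAG, had log2 signals of 7.36 for C6 glioma and 5.97 for SMiNs, 2.61-fold lower. The co-receptor Ngfr had 7.21 and 9.24, 4.07-fold higher, and Tnfrsf19, which can take its place, had 6.66 and 8.31, 3.14-fold higher. Lingo1, the third component, was 1.79-fold higher, at 4.92 and 5.76, and Rtn4r had 5.56 on both arrays. In this list 2 genes (11.8%) were at least 2-fold higher and 1 (5.88%) was lower, beside 4.27% and 8.12% of all named genes, with a median of 0. Rtn4, which encodes Nogo, was 1.23-fold lower.

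**Figure D4:**
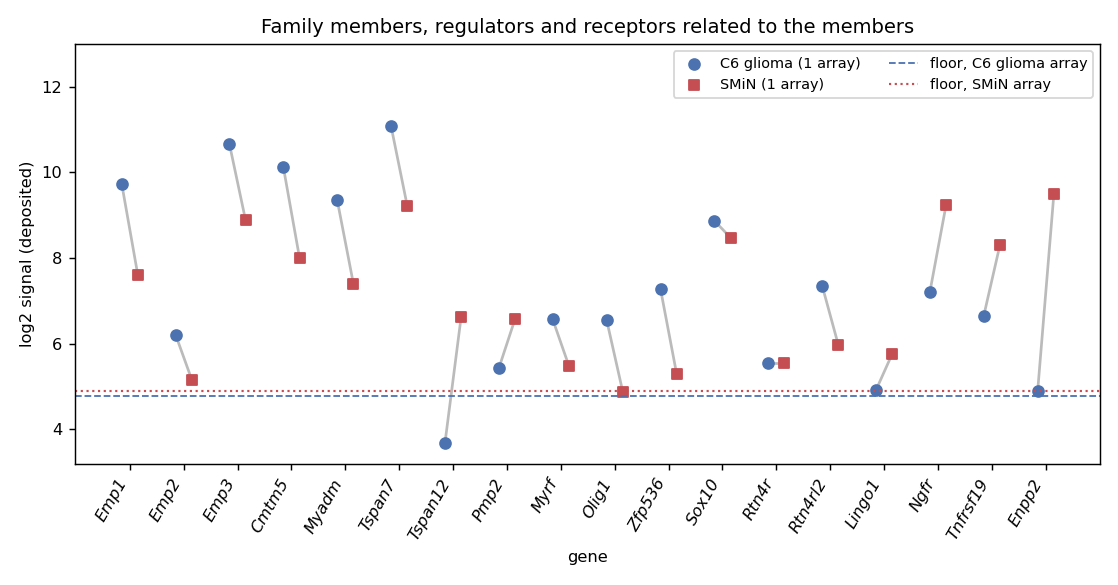
Log2 signal for C6 glioma (circles) and SMiNs (squares) of 18 genes related to the members by family, regulation or binding, with the floor of each array as a horizontal line. Emp1, Emp2, Emp3, Cmtm5, Myadm, Tspan7, Myrf, Olig1, Zfp536 and Rtn4rl2 had 2-fold or more lower signals in SMiNs, and Tspan12, Pmp2, Ngfr, Tnfrsf19 and Enpp2 were at least 2-fold higher.

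Over the 14 lists together, without the members, 37 of 211 genes (17.5%) were at least 2-fold lower, beside 8.12% of all named genes and 12.9% of those that reached the floor of an array. At least 2-fold higher were 12 (5.69%), beside 4.27% and 5.75%, a share near the background. Against the floor 36 were lower and 11 higher, and 35 had the same value on both arrays. Markers of other cell types were read on the same arrays. For astrocytes, 2 of 10 markers were 2-fold higher, Slc1a2 (at least 6.16-fold) and Atp1b2 (2.12-fold), and 0 lower. The C6 glioma signal of Atp1b2 was only 0.02 above the floor. The median of the 10 was 0.18, and that of the 7 that reached the floor of an array was 0.66. For neurons, 1 of 12 was higher, Tubb3 (2.24-fold), and 0 lower. The median of the 12 was 0.43, and that of the 7 that reached the floor was 0.12. For fibroblasts and smooth muscle, 4 of 9 were lower and 0 higher, with a median of 0, including Postn (at least 18.3-fold) and Col1a1 (4.76-fold). Of 6 endothelial markers 1 was lower, Flt1 (3.25-fold), with a median of -0.10. Among 10 microglia and macrophage markers 0 were 2-fold different, with a median of -0.03. The part of other cell types in the differences of the members was not tested.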

How the data were processed

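Total RNA of 2 samples, 1 of C6 glioma and 1 of SMiNs, was amplified and labeled with whole-transcript kits and hybridized to Affymetrix GeneChip arrays by the authors, who used the Affymetrix GeneChip Command Console Software. They deposited log2 signals for 36685 probe sets, with the base of the logarithm taken from their range. How signals were summarized and normalized, and which array was used, is not given in the sources used here. Because each condition had 1 array, the number of arrays limits the precision, no test was run, and values were used as deposited.

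Names came from a platform annotation table. It gave 1 symbol to 18511 probe sets, several to 575 and none to 17599. The 18511 probe sets name 18166 genes, and 291 genes with several probe sets were represented by the brightest. Folds of single genes with one signal below the floor of its array are bounds against that floor, while medians and counts use the deposited differences unless the floor is named. The floor was planned on receptors named Olr, Vom1r or Vom2r (232 probe sets) and was widened to 1360 because the annotation names most olfactory receptors Or. A gene is called higher or lower at 2-fold.

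The members and the 14 related and 5 marker lists, with 282 names of which 256 were measured, were chosen with earlier results of these data known. All members are named, with up to 6 genes of each list that differed by at least 2-fold and its defining genes. Other genes, such as Opalin, Ermn, Lim2, Perp, Tmem47, Tspan18, Enpp6, Cldn11, Fa2h, Acss2, Far1, Lingo1, Rtn4, Prx, Pou3f1 and S100b, are named after their values were seen. The code that makes the 2-fold calls was checked on simulated arrays. Alternatives were median centring, quantile normalization, other floors, the mean of all probe sets, 1.5-fold and 4-fold thresholds and a filter on low signals. The floor from 232 probe sets, as an alternative, was added after the data were examined. Analyses ran in Python 3.11.15 with pandas 2.3.3 and numpy 2.4.6, and plots in matplotlib 3.10.9.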

Additional observations from a re-analysis of the deposited data

How the results depend on the processing

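The differences of Cnp, Bcas1 and Pmp22 stayed at least 2-fold lower under all 7 other scalings, floors and probe set rules, with ranges of -1.78 to -1.52, -1.55 to -1.30 and -1.28 to -1.20 on the log2 scale. Aspa ranged from 0.40 to 1.08. Centring each array on its median gave it 0.996, so that 0 members were higher, and with values under a floor at the 99th percentile set to that floor 0 were higher too. Under that floor Tspan2 was 0.35, reversed, because its SMiN value is replaced by a higher floor than that of C6 glioma. The same floor gave a median of 0.40 for the members, 0.40 for the genes of the 14 lists and 0.40 for all named genes, of which 2.50% were higher. This 0.40 is the difference between the floors of the arrays, given to each gene with both values under them. It is also the lowest value of Aspa, and it is not read as a higher signal in SMiNs. The median of the members was 0 with values under the main floor set to it and 0 with the floor from 232 receptor probe sets. With the latter floor Tspan2 was -0.64, and over the 7 settings it kept its 2-fold call in 4.

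At 4-fold, 0 members were higher and 0 lower, with 4 list genes higher and 7 lower and 0.633% and 1.35% of all named genes higher and lower. At 1.5-fold, 25 list genes were higher and 52 lower, and 11.3% and 16.7% of all named genes were higher and lower. With only genes at or above the floor, 12.9% of named genes were lower and the median of the list genes was -0.14. No paired analysis was possible because each condition has 1 array. Without replicate arrays no difference here can be set against an error. Of 57 list genes that differed by 2-fold, 2 (Tspan5 and Tspan18) no longer did after median centring and 7 (Fyn, Mpzl1, Myrf, Sox2, Tfap2a, Tspan18 and Zeb2) after quantile normalization, and 0 changed direction under either.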
